A study of Homo sapiens with 6 samples.

Results

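Distal intergenic regions are RNA polymerase II regions that the authors' annotation places outside promoters, gene bodies and the short stretch just downstream of a gene. They were taken as every row annotated Distal Intergenic in the 4 deposited region lists, which gave 25912 of 271336 regions. By list these were 5613 of 46045 RPB1 regions in WT cells, 4281 of 41605 RPB1 regions in SHP-1 KO cells, 9259 of 102674 pSer2 regions in WT cells and 6759 of 81012 pSer2 regions in SHP-1 KO cells. The cells were untreated HepG2, a line from a human liver tumor. WT cells were the CRISPR control, made with a nontargeting guide, and SHP-1 KO cells carried a CRISPR/Cas9 knockout of PTPN6, the gene of the tyrosine phosphatase SHP-1. Each line was grown from a single cell and is therefore a clone. Chromatin was immunoprecipitated with an antibody to the tail of RPB1, the largest subunit of RNA polymerase II, or with an antibody to the same tail phosphorylated on serine 2 (pSer2). With 1 library per antibody and cell type, WT and SHP-1 KO values have no replicate check, a difference between the clones cannot be told apart from a difference between genotypes, and no test was run. Sequencing depth cannot be read from the lists, which give no numbers of reads, and every interval given is a 95% Wilson interval (for medians, an order-statistic interval) that covers counting error only. Input libraries were not analysed here. Of 12 hepatocyte marker genes, 10 had a promoter RPB1 region in the WT list and 9 in the SHP-1 KO list, with APOA1 and FOXA2 lacking one in both. Of 12 markers of other cell types, 3 and 2 had one.

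RNA polymerase II gathers at promoters, and its tail is increasingly phosphorylated on serine 2 as it moves through a gene. After the polyadenylation site the polymerase runs on for some distance before it leaves the template, so it can also be found past gene ends. Polymerase far from genes is also known at enhancers and at starts of noncoding RNAs that are missing from a given gene annotation.

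The sequences below are 121 bases of hg38 around the summit of 8 distal regions, forward strand, and show the kinds of DNA that the lists name distal intergenic. Capitals mark a match to any of 10 short motifs on either strand, which are spelled out further on. The first 3 belong to the strongest RPB1 regions, which stood out by GC-rich sequence with many CpG sites (15 to 18 in 121 bases).
AP2S1, chr19:46860508-46860628: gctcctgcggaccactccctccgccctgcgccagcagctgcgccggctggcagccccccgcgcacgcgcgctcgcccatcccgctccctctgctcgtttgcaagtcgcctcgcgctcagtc
NTMT1, chr9:129568695-129568815: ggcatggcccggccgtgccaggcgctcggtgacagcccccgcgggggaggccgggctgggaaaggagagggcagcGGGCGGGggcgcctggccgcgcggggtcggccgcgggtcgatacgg
HAAO, chr2:42810216-42810336: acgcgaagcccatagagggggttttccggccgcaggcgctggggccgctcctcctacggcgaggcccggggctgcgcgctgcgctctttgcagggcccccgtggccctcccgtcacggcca
The next is the region near CYP1A2 that ranked among the strongest of both SHP-1 KO lists, and it holds 2 CpG sites.
CYP1A2, chr15:74760401-74760521: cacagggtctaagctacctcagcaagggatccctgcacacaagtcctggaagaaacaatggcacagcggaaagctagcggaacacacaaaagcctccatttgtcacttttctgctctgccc
The following 3 belong to strong pSer2 regions past gene ends, with a GC content of 32.2%, 38.0% and 55.4%.
GK, chrX:30734204-30734324: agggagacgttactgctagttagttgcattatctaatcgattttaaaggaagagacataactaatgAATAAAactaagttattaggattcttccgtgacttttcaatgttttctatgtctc
BTF3L4, chr1:52093672-52093792: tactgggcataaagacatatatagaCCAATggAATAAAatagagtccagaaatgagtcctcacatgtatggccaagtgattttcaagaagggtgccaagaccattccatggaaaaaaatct
SDF2L1, chr22:21646950-21647070: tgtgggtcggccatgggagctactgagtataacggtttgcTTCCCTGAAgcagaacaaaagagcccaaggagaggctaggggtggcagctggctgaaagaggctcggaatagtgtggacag
The last is the distal region nearest to PCK1, the gluconeogenic enzyme gene that the study centres on, and it holds the HNF4 letters.
PCK1, chr20:57558719-57558839: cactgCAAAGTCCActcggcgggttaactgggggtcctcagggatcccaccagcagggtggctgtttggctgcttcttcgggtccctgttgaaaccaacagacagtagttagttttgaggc

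The first question was how the distal regions were distributed between WT and SHP-1 KO cells. Distal regions made up 12.2% of the RPB1 regions in WT cells and 10.3% in SHP-1 KO cells. The same shares were 9.02% and 8.34% for pSer2. The number of distal regions in SHP-1 KO divided by that in WT was 0.763 for RPB1 and 0.730 for pSer2, against 0.904 and 0.789 for all regions of those lists. Within each antibody the distal class had the lowest ratio of the 7 annotation classes. Promoter regions had the highest RPB1 ratio (0.960), and regions in 3′ UTRs had the highest pSer2 ratio (0.853). On each of the 23 chromosomes compared (1 to 22 and X), the distal RPB1 ratio was below the ratio of all RPB1 regions of that chromosome. For pSer2 this held on 20 of the 23 chromosomes. The distal RPB1 ratio ranged from 0.667 on chromosome 14 to 0.942 on chromosome 4.

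**Figure D1:**
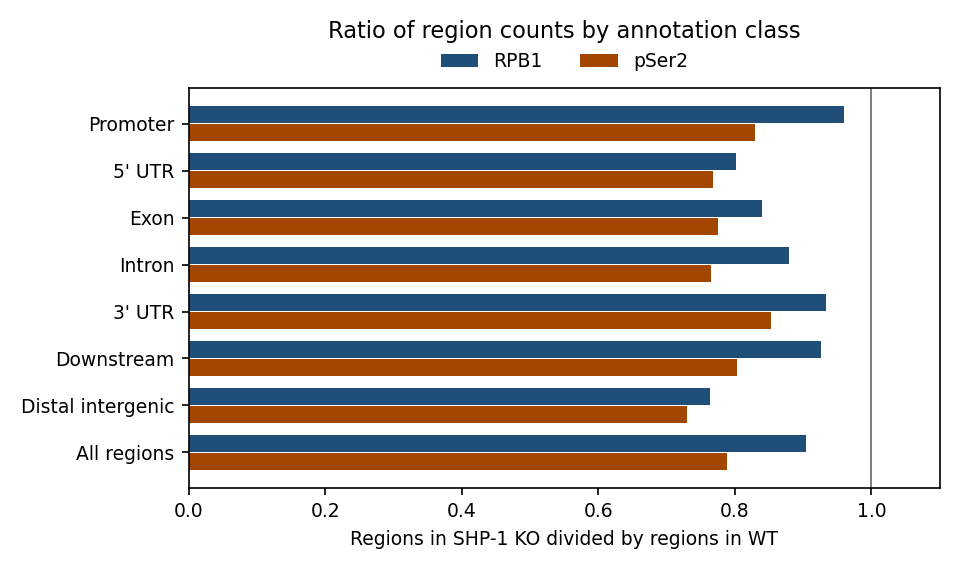
Horizontal bars give the number of regions in the SHP-1 KO list divided by the number in the WT list for each annotation class, for RPB1 (blue) and pSer2 (orange), with 1 library per bar pair and the vertical line at 1. The distal intergenic bars are the shortest of the classes, at 0.763 and 0.730.

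For RPB1, distal regions had lower values than promoter regions, as had every other class. The fold enrichment is the authors' ratio of immunoprecipitated to input signal at the summit, and the lists were not scaled to each other, so WT and SHP-1 KO values are given side by side, with their rank within the list where that is shown. Its median was 5.01 for distal against 11.9 for promoter RPB1 regions in WT cells, and 5.10 against 9.89 in SHP-1 KO cells. The other classes had WT medians from 4.65 (intron) to 5.37 (5′ UTR), so the distal median lay among them. For pSer2 the distal medians of 3.81 and 3.97 lay near the promoter medians of 3.87 and 4.02. The values range widely. In the WT RPB1 list they ran from 2.27 to 77.2 with an upper quartile of 6.80, and in the WT pSer2 list from 1.66 to 24.1 with an upper quartile of 4.75. Median lengths were 355 and 339 bp for RPB1 and 375 and 376 bp for pSer2, and the distal regions covered 3.07, 2.19, 5.60 and 4.02 Mb in the order WT RPB1, SHP-1 KO RPB1, WT pSer2 and SHP-1 KO pSer2.

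Most distal regions were close to a gene. The median distance to the nearest gene start was 8.31 kb for WT RPB1 (interval 7.99 to 8.74) and 7.96 kb for SHP-1 KO RPB1 (7.56 to 8.32). It was 10.9 kb for WT pSer2 (10.6 to 11.2) and 10.2 kb for SHP-1 KO pSer2 (9.96 to 10.5). A start within 5 kb was listed for 34.1% and 35.4% of the RPB1 regions and for 22.7% and 23.2% of the pSer2 regions. Between 2.00% and 3.11% of the regions of a list lay over 100 kb from any start, and the farthest was 1161 kb away. The 2 antibodies differed in the side of the gene. Of the distal RPB1 regions 60.7% (59.4 to 62.0) lay upstream of the nearest start in WT cells and 58.8% (57.3 to 60.2) in the knockout. For distal pSer2 regions the upstream shares were 42.2% (41.2 to 43.2) and 39.5% (38.4 to 40.7). Among distance bins that widen away from the start, the fullest RPB1 bin was 2 to 5 kb upstream (15.8% and 16.0% of the lists). The fullest pSer2 bin was 10 to 20 kb downstream (18.2% and 18.5%). The narrower bin of 1 to 2 kb upstream held 10.4% and 10.6% of the RPB1 regions and 5.54% and 5.27% of the pSer2 regions. The fullest bins were thus not the places with most regions per kb.

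**Figure D2:**
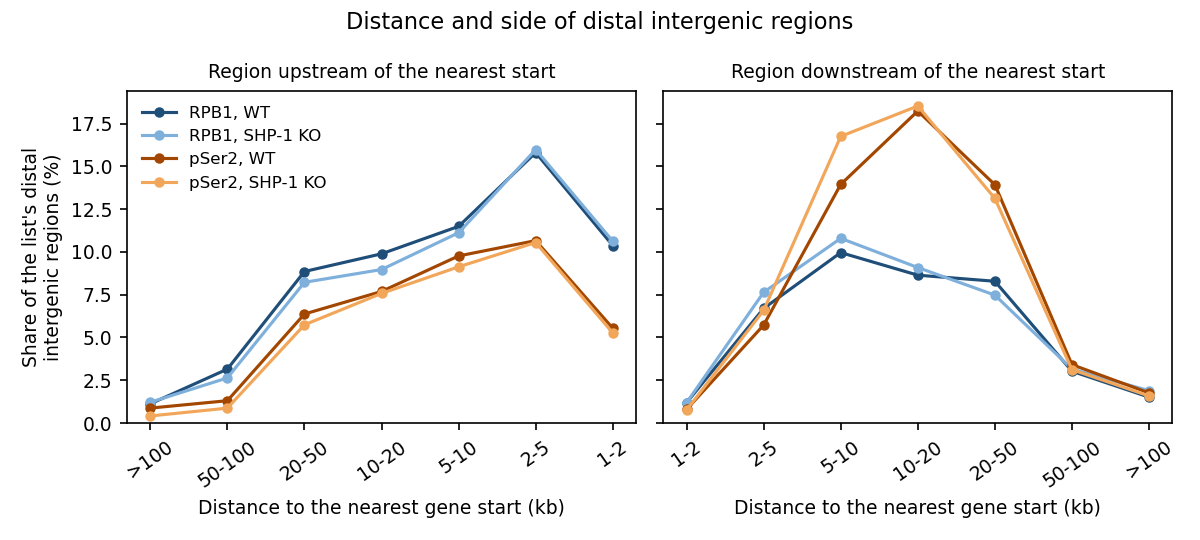
Lines give the share of each list's distal regions (percent) by distance to the nearest gene start in kb, upstream of the start on the left and downstream on the right, with 1 line per list. The bins widen with distance, so a line's height is not a density per kb. The RPB1 lines are highest in the bin 2 to 5 kb upstream, at 15.8% and 16.0%. The pSer2 lines are highest in the bin 10 to 20 kb downstream, at 18.2% and 18.5%.

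A distal region was counted as past a gene end when it lay within 10 kb beyond the end of a transcript, in the direction of transcription. Transcripts were those named anywhere in the 4 lists. By this count 68.2% of the distal pSer2 regions of WT cells (67.3 to 69.2) and 72.9% of those of SHP-1 KO cells (71.8 to 73.9) lay past a gene end. For RPB1 the shares were 41.5% (40.2 to 42.8) and 44.9% (43.4 to 46.4). The share was higher in the SHP-1 KO list than in the WT list for both antibodies, with intervals apart. These intervals treat regions as independent although some lie in runs, and with 1 library per list the difference was not tested. In counts, distal regions past a gene end had a SHP-1 KO to WT ratio of 0.825 for RPB1 and 0.780 for pSer2. Those elsewhere had ratios of 0.719 and 0.623. Distal pSer2 regions over 100 kb from a start had the lowest ratio, 0.553 (135 against 244 regions), while distal RPB1 regions that far away had a ratio of 0.899 (133 against 148). Much of the far pSer2 count came from few places. A run near MGC12916 on chromosome 17 held 108 WT and 80 SHP-1 KO distal pSer2 regions, and LOC100506474 had 21 and 0.

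The overlap of the antibodies was then compared within the same cells, with at least 1 bp required. A pSer2 region overlapped 42.7% of the distal RPB1 regions in WT cells (2394 regions) and 45.1% in SHP-1 KO cells (1932 regions). Over all RPB1 regions the shares were 58.9% and 58.2%. In the other direction, an RPB1 region overlapped 21.4% of the distal pSer2 regions in WT cells and 22.5% in SHP-1 KO cells, against 24.2% and 26.1% of all pSer2 regions. Distal RPB1 regions were therefore overlapped less often than RPB1 regions at large, whereas distal pSer2 regions were close to the background of their lists. When each region of a pair had to cover at least 50% of the other, the RPB1 shares were 8.82% and 10.3% and the pSer2 shares 5.21% and 6.29%. Among RPB1 classes, 3′ UTR regions had the highest overlap (85.4% and 87.2%) and distal regions the lowest. The order against promoters varied with fold enrichment. Under 4 the distal and promoter shares were 33.0% and 39.9% in WT cells and 32.3% and 36.2% in SHP-1 KO cells. At 7 to 15 they were 47.4% and 47.1%, and 49.8% and 42.1%. Intron regions had a higher share than distal regions in every bin.

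The overlap differed with distance past a gene end. Of the WT RPB1 regions within 3 kb past a gene end 82.2% were overlapped by pSer2, which fell to 56.2% at 3 to 10 kb, 32.2% at 10 to 20 kb and 22.5% at 20 to 50 kb. SHP-1 KO cells gave 81.6%, 55.9%, 31.8% and 24.2%. The pSer2 regions also had less overlap at 3 to 10 kb than within 3 kb, but more beyond. In WT cells RPB1 overlapped 19.1% of those within 3 kb past a gene end, 14.4% at 3 to 10 kb, 23.6% at 10 to 20 kb and 38.8% at 20 to 50 kb. In SHP-1 KO cells the shares were 21.0%, 13.9%, 24.4% and 48.6%. The bin of 3 to 10 kb held 42.4% of the distal pSer2 regions in both cell types. Regions without overlap were mostly not adjacent to the other antibody, with 665 of 3219 WT RPB1 and 865 of 7279 WT pSer2 regions within 1 kb of it. The WT RPB1 regions without a pSer2 overlap lay a median 7.75 kb from the nearest pSer2 region, and WT pSer2 regions without an RPB1 overlap a median 18.1 kb from the nearest RPB1 region.

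**Figure D3:**
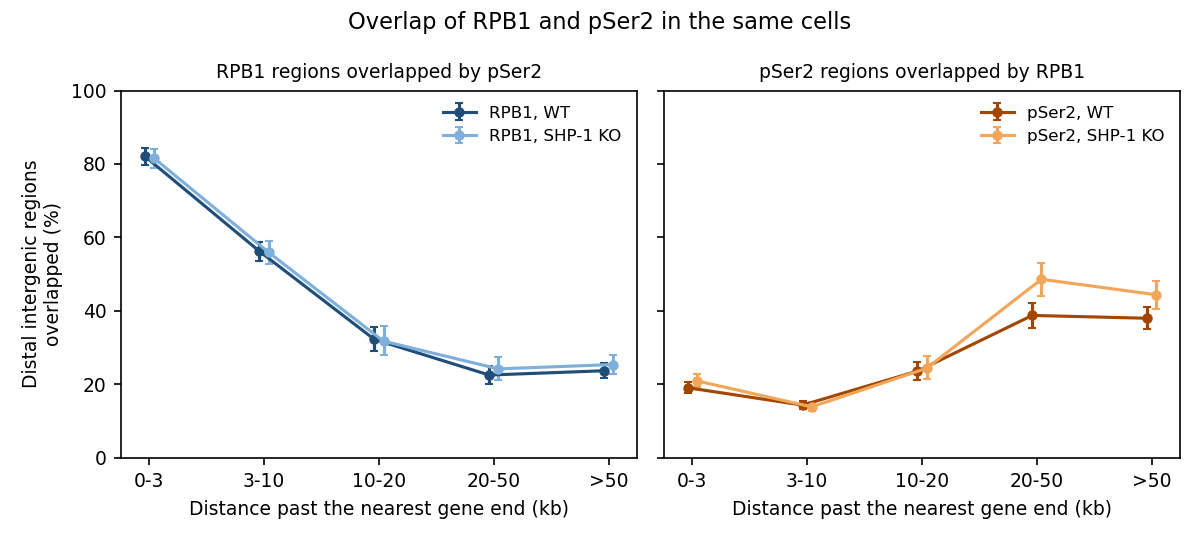
Points give the share (percent, with 95% Wilson intervals) of distal RPB1 regions overlapped by pSer2 on the left and of distal pSer2 regions overlapped by RPB1 on the right, by distance in kb past the nearest gene end. RPB1 regions fall from 82.2% and 81.6% within 3 kb to 23.7% and 25.4% over 50 kb, while pSer2 regions go from 19.1% and 21.0% within 3 kb down to 14.4% and 13.9% at 3 to 10 kb and up to 38.0% and 44.4% over 50 kb.

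Distal regions of both antibodies and cell types were joined into 14375 loci, and an overlapping region of any annotation class counted as present. All 4 kinds were present at 1298 loci (9.03%), and 66.6% of these were past a gene end. Loci with pSer2 in both cell types and no RPB1 were more numerous (3042), with 82.2% past a gene end. Loci with RPB1 in both cell types and no pSer2 numbered 1181, with 20.9% past a gene end. A further 3732 loci (26.0%) were listed for WT pSer2 alone and 1107 (7.70%) for SHP-1 KO pSer2 alone. For RPB1 alone the corresponding numbers were 1871 (13.0%) and 575 (4%). The WT lists are also the larger ones over all classes, with 46045 against 41605 RPB1 and 102674 against 81012 pSer2 regions. Loci were built from distal regions only and not from all classes, so these numbers have no background.

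Many regions called distal by the lists were not far from a gene in GENCODE release 44, a later annotation of protein coding genes and long noncoding RNAs. A GENCODE gene overlapped 13.1% of the distal RPB1 regions in WT cells, 13.2% in SHP-1 KO cells, and 10.5% and 11.1% of the pSer2 regions. A GENCODE start lay within 1 kb of 6.59% and 7.33% of the RPB1 regions and 3.23% and 3.46% of the pSer2 regions. Among the 100 distal regions with the highest fold enrichment, 20 (WT) and 23 (SHP-1 KO) RPB1 regions had such a start, against 3 and 6 pSer2 regions. Conversely, 79 and 84 of the 100 strongest pSer2 regions lay past a gene end, against 21 and 24 of the 100 strongest RPB1 regions.

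Base composition separated the antibodies as well. In 201 bases around the summit the median GC content was 52.2% and 51.2% for distal RPB1 regions and 44.3% and 43.8% for distal pSer2 regions. Promoter regions of the same lists had medians of 64.7%, 64.2%, 52.7% and 52.7%. A window was called CpG-rich when its GC content exceeded 50% and its observed to expected CpG ratio exceeded 0.6. Of the WT distal RPB1 regions 610 (10.9%) were CpG-rich, as were 457 (10.7%) in SHP-1 KO cells, against 54.4% and 55.0% of promoter RPB1 regions. Among the 100 strongest distal RPB1 regions 68 and 67 were CpG-rich. For pSer2 2.00% and 2.20% of the distal regions were CpG-rich, with 4 and 5 among the 100 strongest. CpG-rich distal RPB1 regions had a higher median fold enrichment (7.51 against 4.99 in WT cells) and fewer of them were overlapped by pSer2 (27.9% against 44.5%). The few CpG-rich distal pSer2 regions carried RPB1 in 76.2% of cases in WT cells versus 82.6% in the knockout, against 20.3% and 21.1% of the other distal pSer2 regions.

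Sharing between the cell types was measured as overlap with any region of the same antibody in the other cells. Of the distal RPB1 regions 49.0% of the WT list were matched in SHP-1 KO cells and 72.0% of the SHP-1 KO list in WT cells, against 61.9% and 74.9% of all regions. Of the distal pSer2 regions 51.2% and 79.8% were matched, against 52.2% and 69.9% of all regions. The WT lists hold more regions than the SHP-1 KO lists, and the part of this in the shares was not tested. With at least 50% of each region covered, the RPB1 shares were 28.2% and 36.9% and the pSer2 shares 26.1% and 36.3%. Sharing rose with fold enrichment. In WT RPB1 it was 30.0% of the 927 distal regions with a fold enrichment under 4, 48.4% at 5 to 7 and 99.4% of the 338 at 15 or more. Promoter RPB1 regions of the same bins had 36.6%, 54.9% and 99.8%, and intron regions 31.4%, 53.1% and 97.0%. The intervals of distal and promoter regions were apart under 4 and at 5 to 7 and overlapped at 15 or more. The order of the classes was not the same in every list. In SHP-1 KO pSer2 the distal share was above the promoter share, at 70.5% against 63.4% under 3 and 83.8% against 80.5% at 4 to 5. For WT pSer2 the distal share rose from 37.3% under 3 to 96.4% at 7 or more. Shared WT RPB1 regions had a median fold enrichment of 6.24 and a median length of 531 bp, and those not shared 4.51 and 275 bp.

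**Figure D4:**
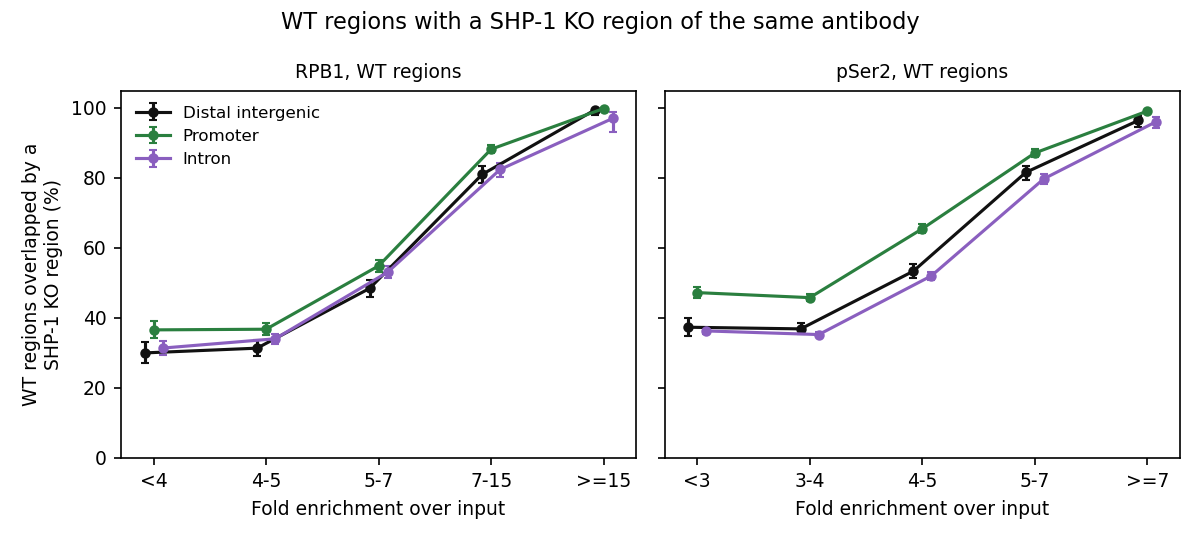
Points give the share (percent, with 95% Wilson intervals) of WT regions overlapped by a SHP-1 KO region of the same antibody, by fold enrichment over input, for distal intergenic, promoter and intron regions of RPB1 (left) and pSer2 (right). Distal RPB1 regions rise from 30.0% to 99.4% and distal pSer2 regions from 37.3% to 96.4%.

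The strongest distal RPB1 regions were present in both cell types. The highest distal value of both RPB1 lists belonged to a region assigned to AP2S1, the gene of a clathrin adaptor subunit, 8.75 kb upstream of its start. The WT region (chr19:46859746-46862615) had a fold enrichment of 77.2, and its SHP-1 KO counterpart reached 75.9, with pSer2 regions of 4.52 and 5.40 at the same place. In GENCODE release 44 it overlaps the start of ARHGAP35, the gene of a GTPase activating protein, so the nearest start depends on the annotation. A region assigned to NTMT1, the gene of an N-terminal methyltransferase, lay 36.1 kb from that gene at chr9:129566859-129572757. Its RPB1 values were 71.2 in WT cells versus 56.5 in the knockout, and its pSer2 values 12.7 and 18.4. The nearest GENCODE start there is of the long noncoding RNA ENSG00000227619, at 2.36 kb. FLYWCH2, at 66.9 and 72.8, lay 4.80 kb past the end of that gene and overlapped the start of the long noncoding RNA ENSG00000289222. HAAO, named for an enzyme of the kynurenine pathway, had 70.9 in WT cells versus 43.2 in the knockout, and its region held no GENCODE gene. MKNK2, named for a kinase of eIF4E, had 70.6 and 43.3. TXLNG had 57.3 in WT cells versus 66.0 in the knockout, with pSer2 regions of 17.2 and 15.3. All 6 stood at the 97.5th percentile or higher among the fold enrichments of all regions of both RPB1 lists. HAAO and MKNK2 were named from the WT RPB1 list alone and TXLNG from the SHP-1 KO RPB1 list alone.

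CYP1A2, the gene of a hepatic cytochrome P450 of xenobiotic metabolism, ranked higher in both SHP-1 KO lists than in the WT lists. Its distal region (chr15:74759925-74760893 in the SHP-1 KO RPB1 list) lies 3.72 kb past the end of the gene. RPB1 had a fold enrichment of 21.9 in WT cells, at the 82.9th percentile of all regions of that list, and of 70.7 in SHP-1 KO cells, at the 99.7th. For pSer2 the values were 4.85 at the 81.2nd percentile and 21.9 at the 99.9th, the highest distal value of the SHP-1 KO pSer2 list. SDF2L1, the gene of an endoplasmic reticulum stress protein, had RPB1 at 9.34 (70.6th percentile) in WT cells and 22.1 (87.5th) in the knockout, and pSer2 at 6.49 (92.8th) and 19.4 (99.8th). The SDF2L1 region lay 1.90 kb past the gene end. CYP1A2 and SDF2L1 were named for their place among the 5 strongest of a SHP-1 KO list and of no WT list. Higher values and ranks in SHP-1 KO than in WT cells therefore follow in part from the choice.

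The strongest distal pSer2 regions of WT cells lay past gene ends. They were chosen by their WT values, so lower values in SHP-1 KO cells follow in part from the choice. The region past GK, the glycerol kinase gene, had the highest value (24.1 at chrX:30733627-30737216) and 10.8 in SHP-1 KO cells, while RPB1 there was 6.01 and 6.05. BTF3L4 had 19.7 and 16.2, SND1 19.2 and 15.1, and CERS4, the gene of a ceramide synthase, 19.1 and 6.34. UBB, a polyubiquitin gene, had 18.6 and 12.4, starting 0.108 kb past the end of the listed transcript. RPB1 was listed at all 5 places in WT cells, between 5.34 and 16.5, and at 4 of them in SHP-1 KO cells, where SND1 had none. In the SHP-1 KO pSer2 list the other leading regions, chosen by their SHP-1 KO values, were those assigned to NTMT1 (18.4), CERNA2 (18.0) and SEC61G (17.0). The CERNA2 region lay 1.42 kb past the end of GHITM, the gene of a mitochondrial membrane protein, and had 11.1 for pSer2 in WT cells. SEC61G, the gene of a subunit of the protein translocation channel, had 8.98 in WT cells.

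**Figure D5:**
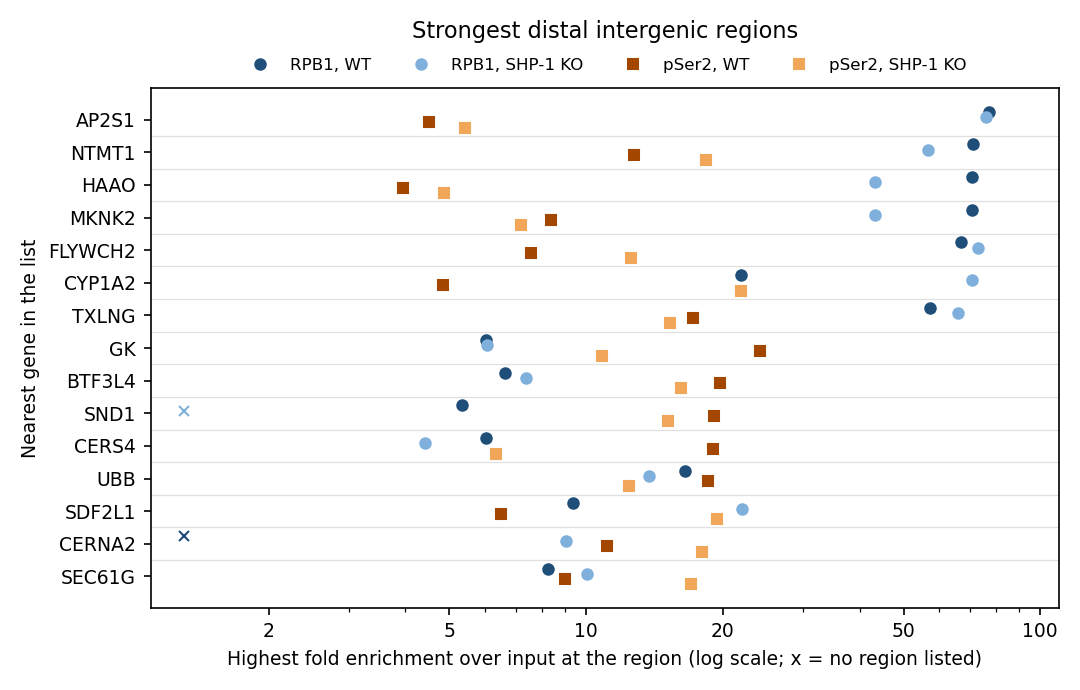
Points give, on a log axis, the highest fold enrichment over input of the regions overlapping each of 15 distal regions, named by the nearest gene in the lists, in each of the 4 lists (circles RPB1, squares pSer2, dark WT, light SHP-1 KO, and a cross where no region is listed). The first 7 were among the 5 strongest of an RPB1 list, with AP2S1 at 77.2 and 75.9, and CYP1A2 at 21.9 and 70.7 for RPB1 and 4.85 and 21.9 for pSer2 (WT, then SHP-1 KO), on the scale of each list.

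Of the distal regions far from genes, the strongest over 100 kb from a start were assigned to INTS4P1 (WT RPB1, fold enrichment 25.8), TRIM24 (SHP-1 KO RPB1, 23.8), GPC4 (WT pSer2, 14.7) and MGC12916 (SHP-1 KO pSer2, 11.1). The INTS4P1 region overlapped a GENCODE long noncoding RNA start and had no pSer2 region in either cell type. The GPC4 region, 109 kb from that start, lay 6.83 kb past the end of GPC3, the glypican gene expressed in hepatic tumors, and had no RPB1 region. The TRIM24 region, 142 kb upstream, had RPB1 at 16.4 in WT cells and pSer2 at 8.46 and 10.2.

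Regions with no region of the same antibody within 1 kb in the other cells were weaker. They numbered 1691 in WT RPB1 (30.1% of distal, against 20.0% of all regions of that list), 512 in SHP-1 KO RPB1 (12.0%, against 10.9%), 2514 in WT pSer2 (27.2%, against 26.9%) and 442 in SHP-1 KO pSer2 (6.54%, against 12.51%). The distal share thus lay above that of all regions for WT RPB1 and below it for SHP-1 KO pSer2. Their median fold enrichment was 4.51, 4.41, 3.53 and 3.44. The strongest found in WT cells alone for RPB1 were near PIM3, the gene of a serine/threonine kinase (18.5), FBRSL1 (17.5), LINC00929 (14.9), LGALS3, the galectin-3 gene (12.8), and LY86-AS1 (12.8). For SHP-1 KO RPB1 they were near MIR6775 (13.2), GK (12.3), SASH3 (12.1), CERNA2 (9.03) and WAPL (7.92). For WT pSer2 they were near HCG15 (11.0), NDUFC2 (10.8), CNOT3 (10.7), CER1 (9.45) and LOC100506474 (8.58). At the places of HCG15, NDUFC2 and CNOT3, RPB1 regions were listed in both cell types, at 18.5, 11.6 and 15.02 in WT cells and 4.22, 4.22 and 3.46 in the knockout. For SHP-1 KO pSer2 the values were lower, with JDP2 (7.68), BLVRA (5.77), MIMT1 (5.54) and MRPL58 (5.14). The RPB1 list of WT cells held the distal region upstream of PCK1 (chr20:57558663-57558921), 2.16 kb from the start, with a fold enrichment of 3.18 at the 2.0th percentile. No other list had a region there, and no distal region was assigned to PTPN6.

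Nearest genes were many, with few regions each. Distal regions named 2749 and 2216 genes for RPB1 and 3360 and 2720 for pSer2, and 54.9%, 57.3%, 40.8% and 43.9% of these had 1 distal region. A promoter region of the same list was also present at 73.5% and 74.5% of the RPB1 genes and at 62.2% and 59.7% of the pSer2 genes. By gene type, 82.8% and 83.6% of the RPB1 regions and 86.3% and 87.5% of the pSer2 regions were nearest to a protein coding gene.

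A few stretches held runs of distal regions. The largest was near MGC12916 on chromosome 17, with 111 pSer2 regions in WT cells versus 84 in the knockout and with 3 and 2 distal RPB1 regions. The WT regions spread over 261 kb (chr17:14349470-14610283) and had a median fold enrichment of 4.08. Counting every annotation class, this stretch held 149 and 120 pSer2 regions and 15 and 15 RPB1 regions, the latter with fold enrichments up to 26.0 and 23.5. The GENCODE long noncoding RNA ENSG00000230647 overlaps this stretch. Counting distal regions only, LINC01946 had 27 and 22 for pSer2 and none for RPB1. LOC105377213 had 27 and 21 distal pSer2 regions with 9 and 6 distal RPB1 regions. Regions nearest to CCDC70 numbered 22 and 13 for pSer2, within a run of 36 and 27 regions also assigned to ATP7B, the copper transporter gene. For RPB1 the longest lists were near NTMT1 (19 in WT, 11 in SHP-1 KO), KCMF1 (18 and 14), MIMT1 (17 and 13), GPAM (12 and 17), FOXQ1 (11 and 15) and ADRA2C (13 and 14). GPAM encodes an acyltransferase of triglyceride synthesis and FOXQ1 a forkhead factor. The cluster between TACC3 and FGFR3, a receptor tyrosine kinase gene, held 21 RPB1 regions in WT cells versus 24 in the knockout. SEMA6B had 15 and 8, MRPL33 9 and 14, and TACC3 10 and 14.

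Some runs were listed in WT cells and nearly absent from SHP-1 KO cells. FBRSL1 had 15 distal RPB1 regions in WT cells but none in the knockout, and 7 distal pSer2 regions in WT cells but none in the knockout. The RPB1 regions spanned 18.0 kb at chr12:132422630-132440667, and no region of any class was listed there for either antibody in SHP-1 KO cells. In the 500 kb on each side, 79 RPB1 regions were listed in WT cells versus 66 in the knockout, and 157 and 119 pSer2 regions. Near MGC27382 on chromosome 1, 37 distal pSer2 regions of WT cells, spread over 81.6 kb, stood against 1 in SHP-1 KO cells, with flanks of 82 and 55 pSer2 regions and no RPB1 region in the stretch. LOC100506474 on chromosome 2 had 21 distal pSer2 regions in WT cells but none in the knockout, with no pSer2 region in the flanks of either. Of the 216 genes with at least 5 distal RPB1 regions in WT cells, 10 had none in SHP-1 KO cells. Of the 140 genes with at least 5 in SHP-1 KO cells, 1 (SEC61B, named after its values were seen) had none in WT cells. For pSer2 the numbers were 24 of 514 and 1 of 330 (IRX3, named in the same way). For comparison, distal RPB1 regions named 2749 genes in the WT list and 2216 in the knockout list, of which 1788 were common to both. The pSer2 lists named 3360 and 2720 genes, of which 2361 were common. Genes with at least 5 distal regions were missing from the other list less often than genes at large, for both antibodies and in both directions. This follows in part from the choice, as genes at large include the many with 1 distal region. The reasons for these absences were not tested.

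Genes of liver function were read from lists of gene names. As background, 19.4% and 16.5% of the 14164 and 13459 genes with any RPB1 region had a distal one in WT and SHP-1 KO cells, and 26.4% and 23.8% of the 12740 and 11433 genes with any pSer2 region. Of 22 genes of plasma proteins made in the liver, 22 (WT) and 19 (SHP-1 KO) had any RPB1 region, and 11 and 8 a distal one. For pSer2, 21 and 21 had any region and 6 and 7 a distal one, the WT count being near its background. AMBP, the gene of a plasma protease inhibitor, had 2 and 2 RPB1 regions with values up to 16.3 and 14.2. APOB, the main protein of low-density lipoprotein, had 2 and 3 RPB1 regions, up to 10.4 and 14.0, and APOC3 had 3 and 1, up to 12.4 and 4.01. For ALB, the albumin gene, 2 and 3 RPB1 regions reached 7.48 and 6.48. Of 20 liver transcription factor genes, 8 of the 18 and 6 of the 18 with any RPB1 region had a distal one. For pSer2 these were 4 of 18 and 2 of 17, not above the background. CEBPA, which encodes C/EBP alpha, led with 8 and 6 RPB1 regions, up to 30.1 and 10.0, and FOXA1 had 1 in each, at 17.0 and 8.16. PPARA, the nuclear receptor of fatty acid oxidation, had 2 and 1, up to 15.4 and 4.41.

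Of 20 immediate early and stress response genes, 6 of the 19 and 4 of the 17 with any RPB1 region had a distal one. For pSer2 these were 3 of 17 and 2 of 17, not above the background shares given before. RPB1 was led by TRIB1 (9 and 6) and IER2 (2 and 7). Of 12 STAT5 target genes, 6 of the 9 and 3 of the 9 with any RPB1 region had a distal one. For pSer2 these were 2 of 7 and 3 of 6. No list was tested against the background. BCL6, a transcriptional repressor, had 28.3 and 22.7 for RPB1 in 1 region each, and CCND1, the cyclin D1 gene, had up to 32.1 and 15.9 in 2 regions each. PIM1 had 5 RPB1 regions in WT cells versus 2 in the knockout. Of 9 long noncoding RNA genes, 2 of the 7 and 3 of the 7 with any RPB1 region had a distal one. For pSer2 these were 2 of 5 and 2 of 5. MALAT1 had 9 and 6 distal RPB1 regions, up to 53.0 and 39.5, and 6 and 4 distal pSer2 regions. NEAT1 had 0 and 4 distal RPB1 regions and 5 and 6 distal pSer2 regions. The number of genes with a distal RPB1 region was lower in SHP-1 KO cells in 4 of the 5 lists. The exception was the noncoding RNAs, with 2 in WT cells versus 3 in the knockout. Over all genes the number was also lower, at 2216 in SHP-1 KO against 2749 in WT cells. ONECUT1, with 1 distal RPB1 region in WT cells and 0 in the knockout, was in both the liver factor and the STAT5 list.

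Motifs were searched on both strands of the 201 bases around each summit. They were STAT (TTCNNNGAA), AP-1 (TGANTCA), C/EBP (TTGCNNCAA), FOXA (TGTTTAC), CREB (TGACGTCA), HNF4 (CAAAGTCCA), Sp1 (GGGCGGG), NF-Y (CCAAT), the TATA box (TATAAA) and the polyadenylation signal (AATAAA), where the last 2 can share bases. The Sp1 letters were in 7.34% and 6.47% of distal RPB1 windows and 1.88% and 1.83% of distal pSer2 windows, against 25.7%, 25.1%, 10.3% and 10.1% of the promoter windows. The polyadenylation letters were in 14.7% and 16.0% of distal RPB1 and 24.5% and 23.7% of distal pSer2 windows, against 5.91%, 7.05%, 15.4% and 15.6% of promoter windows. Past a gene end and elsewhere, the distal shares were 14.7% and 14.7% for WT RPB1 and 16.8% and 15.3% for SHP-1 KO RPB1. They were 24.5% and 24.4% for WT pSer2 and 23.9% and 23.2% for SHP-1 KO pSer2, with overlapping intervals in each list. AP-1 letters were in 5.90% and 6.50% of distal RPB1 windows and 3.06% and 3.15% of promoter RPB1 windows. For STAT, the family of the study's partner factor STAT5, the shares were 4.24% and 4.72% of distal RPB1 windows and 2.96% and 3.11% of promoter RPB1 windows. In pSer2 windows the STAT shares were higher in both classes, at 6.69% and 6.58% (distal) and 5.34% and 5.35% (promoter). The HNF4 letters found near PCK1 were in 26 of 5613 distal WT RPB1 windows (0.463%) and in 0.283% of the promoter windows. GC content differed between these sets, and its part in them was not tested. For each of the 10 motifs the WT and SHP-1 KO intervals of the distal windows overlapped, in both antibodies.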

How the data were processed

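The members and the gene lists were chosen with earlier results of these data known. Per the study's methods, the authors trimmed reads with Trimmomatic, aligned them with BWA to hg38 and called regions with MACS2 in each ChIP library against its input. The deposited lists give, per region, the fold enrichment over input (a ratio, at the summit), the −log10 p-value and −log10 q-value from the peak caller, and the authors' annotation with the nearest gene and its distance. Tool versions are not given in the sources used here. A deposited table of the authors' own comparison between cell types (fold changes and p-values) was not used.

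Overlap needed at least 1 bp, and coordinates count from 1. Gene ends came from the transcripts named in the 4 lists. GENCODE release 44 and the hg38 sequence were the reference, and all 271336 regions lay within their chromosomes. Motifs and GC content were read in 201 bases around each summit. With 1 library per condition no test was made, and intervals (95%, Wilson or order statistic) cover counting error. Named genes were, per list, the 5 strongest distal regions, the 5 genes and 3 clusters with most distal regions, the strongest region over 100 kb from a start, the 5 strongest regions without a counterpart within 1 kb in the other cells, PCK1, PTPN6 and members of the gene lists. Alternatives were a −log10 q-value of at least 5, other overlaps, GENCODE genes, merged regions and a wider motif window. Functions were tested on simulated data. Python 3.11.15, pandas 2.3.3, NumPy 2.4.6, SciPy 1.17.1 and matplotlib 3.10.9 were used. Some items within these rules are not reported here.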

Additional observations from a re-analysis of the deposited data

How the results depend on the processing

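Values are given in the order WT RPB1, SHP-1 KO RPB1, WT pSer2, SHP-1 KO pSer2. No paired analysis was possible because each condition has 1 library and no result comes from a test, and no replicate could be left out. When regions under a −log10 q-value of 5 were left out, the distal share was 11.2%, 9.19%, 9.77% and 9.04%, the median distance 9.47, 8.87, 10.2 and 9.52 kb, the share past a gene end 37.2%, 40.5%, 70.8% and 74.8%, the median fold enrichment 6.37, 6.28, 4.64 and 4.73, and the share matched in the other cell type 64.5%, 86.1%, 68.1% and 90.0%. The share overlapped by the other antibody was then 28.4% and 29.9% for pSer2, and the share inside a GENCODE gene 14.5% for SHP-1 KO RPB1. With that limit in both lists compared, the other antibody overlapped 36.1% and 39.6% of RPB1 regions, and 51.8%, 76.5% and 78.2% (WT RPB1, SHP-1 KO RPB1, SHP-1 KO pSer2) were matched in the other cell type. With GENCODE genes the median distance was 5.85, 5.475, 8.71 and 8.16 kb and the share past a gene end 53.8%, 57.2%, 77.0% and 80.2%. A reciprocal overlap of 50% gave 8.82%, 10.3%, 5.21% and 6.29% for the other antibody and 28.2%, 36.9%, 26.1% and 36.3% for the other cell type. An overlap of 50% of the distal region gave 32.2%, 35.02%, 13.9% and 14.6%, and 35.4%, 61.3%, 34.7% and 66.9%. Counting a region within 1 kb, 69.9%, 88.0%, 72.8% and 93.5% were matched in the other cell type. Merging regions under 1 kb apart gave a pSer2 ratio of 0.758. A window of 250 bases on each side gave STAT shares of 10.6%, 11.3%, 14.9% and 15.03%. The causes of these differences were not tested.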
